A study of Mus musculus with 24 samples.

Results

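The genes described here are 10 components of WNT signalling in the embryonic mouse jaw: the ligands Wnt4, Wnt5a and Wnt6, the receptor Fzd2, the R-spondin receptor Lgr5, the secreted inhibitors Wif1, Sfrp2 and Sfrp4, and the transcriptional readouts Lef1 and Axin2. They were taken by gene symbol: every probe set that the platform annotation gives to a member symbol alone was used, which made 20 of 45101 probe sets and 10 of the 18194 genes with a symbol of their own. Where a gene had several probe sets, the brightest on average over the 24 arrays stood for it, and the rest are reported beside it. All 10 genes passed the filter on low values, as did 13850 genes in all. Gene expression had been measured on Affymetrix mouse arrays in jaw tissue at embryonic day 13.5 in C57B6 mice. The mating crossed Wnt1cre;Tgfbr2fl/+ with Tgfbr2fl/fl mice, and the 12 mutant arrays come from embryos recognised by a cleft palate and a calvarial defect. Wnt1cre acts in the neural crest and its descendants, which form the jaw mesenchyme, while epithelium and muscle have other origins. The 12 control arrays come from littermates, which carry at least 1 floxed Tgfbr2 allele under this mating and for which the labels do not state whether Cre was present. Distal and proximal ends were taken from mandible and from maxilla, so that genotype, jaw and end make 8 groups of 3 arrays. No label says whether a sample was 1 embryo or a pool, so the p-values rest on sample-to-sample spread that could in part be technical in origin.

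WNT ligands are secreted lipid-modified proteins that bind Frizzled receptors with LRP co-receptors. In the canonical branch they stabilise beta-catenin, which enters the nucleus, binds LEF and TCF proteins and switches on targets such as Axin2, a scaffold that feeds back on the pathway, while Wnt5a is best known for beta-catenin-independent signalling that orients and extends tissue. WIF1 and the secreted Frizzled-related proteins bind WNT ligands outside the cell and limit their reach. In the jaw, WNT signals between epithelium and mesenchyme are known for their part in outgrowth and in the start of tooth development.

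The 4 arrays of a genotype with a common replicate number are referred to as a set, which gives 6 sets. Xist averaged log2 6.31 in control set 1 and 6.50 in mutant set 1 and lay between 13.19 and 13.68 in the other sets, while the Y-linked mean was 3.82 and 3.88 in control sets 2 and 3 and between 8.81 and 10.01 elsewhere, so both kinds were present in mutant sets 2 and 3. Control set 1 thus differed in sex from control sets 2 and 3, and the mix of the sexes differed between the genotypes. The 3 prime minus 5 prime difference of the Gapdh control probe sets, a measure of RNA quality, averaged 0.46 and 0.54 in mutant sets 1 and 3 and between 0.01 and 0.07 in the other 4. Tgfbr2 itself read 11.94 to 12.33 in control and 12.20 to 12.68 in mutant arrays on its brightest probe set, a difference of 0.31 on average (adjusted p = 0.000296), and the 2 dimmer probe sets differed by -0.18 and -0.06. Whether these probe sets cover the floxed exon is unknown here, so they do not check the genotype labels, which are used as given. Jaw mesenchyme markers such as Prrx1 and Twist1 averaged between 11.39 and 11.99 on every array, and mandibular identity genes such as Hand2 and Dlx5 between 9.33 and 9.90 in mandible and between 8.17 and 9.08 in maxilla, without overlap. The distal maxilla array of mutant set 1 stood apart from the other 2 of its group: cartilage markers averaged 11.82 on it against 7.73 and 7.51, and epithelium markers 10.89 against 10.22 and 10.06.

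Promoter sequences are shown for Lef1 and Axin2, the readouts whose levels moved together between the ends of the jaw, and for Sfrp2, which moved the opposite way. They are RefSeq sequences on GRCm38.p6, each from 250 bases before to 50 bases after the annotated start, and 6 of the 10 members have an entry in the table used. Capitals mark CTTTG, the core of the LEF and TCF binding motif, on either strand.
Lef1 (first of 4 starts, chr3:131110047-131110346, plus strand): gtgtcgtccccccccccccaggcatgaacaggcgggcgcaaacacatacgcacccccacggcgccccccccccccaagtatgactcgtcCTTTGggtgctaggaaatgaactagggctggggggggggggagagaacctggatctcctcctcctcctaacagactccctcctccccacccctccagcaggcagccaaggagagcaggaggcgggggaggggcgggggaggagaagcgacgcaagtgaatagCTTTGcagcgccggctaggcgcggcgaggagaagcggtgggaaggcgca
Axin2 (chr11:108920099-108920398, plus strand): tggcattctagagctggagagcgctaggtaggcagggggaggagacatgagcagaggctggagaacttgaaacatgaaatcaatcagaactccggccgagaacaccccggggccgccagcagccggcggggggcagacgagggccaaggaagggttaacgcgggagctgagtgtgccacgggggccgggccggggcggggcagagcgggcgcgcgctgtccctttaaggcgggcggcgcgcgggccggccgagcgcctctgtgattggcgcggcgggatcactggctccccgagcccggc
Sfrp2 (chr3:83766071-83766370, plus strand): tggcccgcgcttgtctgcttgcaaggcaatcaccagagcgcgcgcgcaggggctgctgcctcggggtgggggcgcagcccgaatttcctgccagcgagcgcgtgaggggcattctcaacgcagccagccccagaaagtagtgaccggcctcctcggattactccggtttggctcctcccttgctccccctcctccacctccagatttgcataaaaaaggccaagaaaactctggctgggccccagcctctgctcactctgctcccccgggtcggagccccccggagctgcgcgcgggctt
The core occurred 2 times in this Lef1 window and not in the Axin2 or Sfrp2 window, while 53.9% of all 32851 promoter windows held it. The fuller forms CTTTGAT and CTTTGTT, searched on both strands, were in none of the 9 member windows (Wnt4, Wnt6, Wif1, Sfrp2, 4 starts of Lef1 and Axin2) and in 9.33% of all windows. These letters may lie outside the windows, and the counts are a description of the sequence only.

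Values below are log2 expression levels or log2 differences, and since probe sets bind with different strength, levels are compared between samples and not between genes. The range of the 8 group means was largest for Sfrp4, from 7.96 in the control proximal maxilla to 11.64 in the mutant distal mandible, and smallest for Fzd2, from 12.12 in the control distal maxilla to 12.54 in the mutant distal maxilla. For Wnt4, Wnt6, Lef1 and Axin2 all 4 distal groups ranked above all 4 proximal groups. Wnt5a had the same division, with the 2 distal mandible groups on top. Sfrp2 was the mirror of this order, with the 4 proximal groups on top and the 2 distal mandible groups lowest. Wif1 ranked by jaw, with 4 mandible groups above 4 maxilla groups. Neighbours in the order mostly overlapped: of the 7 steps between neighbouring groups, the arrays overlapped in 7 for Wnt6, Lgr5 and Fzd2, in 6 for Wnt4, Sfrp4 and Axin2, in 5 for Wif1, Sfrp2 and Lef1, and in 3 for Wnt5a. Lgr5 placed 3 of the 4 control groups first, and Fzd2 placed the 4 mutant groups first.

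**Figure D1:**
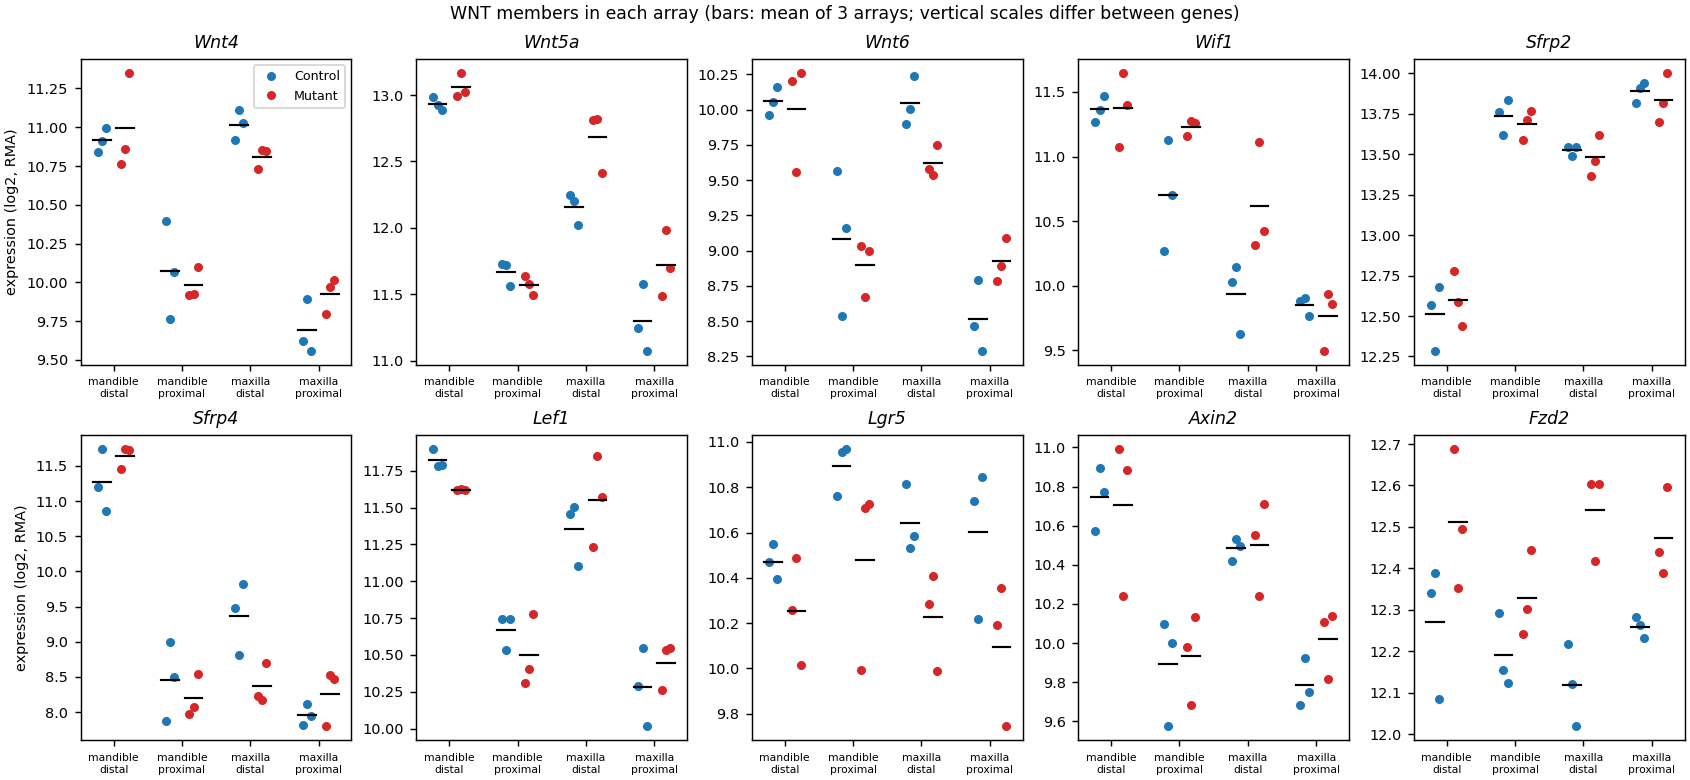
Expression (log2, vertical axis, its scale differing between genes) of the 10 genes on each array, in 4 regions (horizontal axis), with control arrays in blue, mutant arrays in red and a bar at the mean of 3 arrays. Wnt4, Wnt5a, Wnt6, Lef1 and Axin2 are high at the distal end in both jaws, Sfrp4 peaks in the distal mandible above 10.8, and Sfrp2 is lowest there.

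The first question was how the members differ between the distal and the proximal end of a normal jaw. In the control mandible 7 members were higher distally and 1 was lower at an adjusted p under 0.05, where 13.3% of all tested genes were called, 6.24% higher and 7.08% lower. In the control maxilla 6 were higher and 1 lower, where 6.06% of genes were called, 3.37% higher and 2.69% lower. The arrays of the 2 ends did not overlap for 9 members in the mandible and 8 in the maxilla, against 41.6% and 34.3% of all genes. The members' median difference was 0.85 in the mandible and 0.78 in the maxilla, and over all genes it was 0.000392 and 0.01.

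Wnt5a, the ligand of jaw and limb mesenchyme that drives outgrowth, read 12.98, 12.93 and 12.89 in the control distal mandible and 11.73, 11.72 and 11.56 in the proximal mandible. The control maxilla gave 12.25, 12.20 and 12.02 distally and 11.25, 11.57 and 11.07 proximally. Every distal array was above every proximal one of its jaw, and every distal mandible array above every distal maxilla array. The difference was 1.26 ± 0.13 (SE, n = 3 against 3) in the mandible, a fold of 2.40 (adjusted p = 5.04e-06), and 0.86 ± 0.13 in the maxilla (adjusted p = 0.000406). Its 3 other probe sets gave mandibular differences of 2.00, 1.84 and 1.40 and maxillary ones of 1.13, 1.22 and 0.71, all in the same direction.

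Wnt4 and Wnt6, ligands known from the oral epithelium, had nearly the same profile. Wnt4 read 10.84, 10.91 and 10.99 in the control distal mandible, 10.39, 9.76 and 10.07 in the proximal mandible, 10.92, 11.11 and 11.03 in the distal maxilla and 9.62, 9.89 and 9.56 in the proximal maxilla. Wnt6 read 9.96, 10.05 and 10.16, then 9.56, 8.54 and 9.16, then 9.90, 10.01 and 10.24, and 8.47, 8.79 and 8.29 in the same regions. The ends did not overlap for either gene in either jaw, and the proximal arrays were the more scattered. Distal minus proximal was 0.84 ± 0.14 in the mandible and 1.33 ± 0.14 in the maxilla for Wnt4 (adjusted p = 0.000506 and 2.18e-05). For Wnt6 it was 0.97 ± 0.21 and 1.53 ± 0.21 (adjusted p = 0.0036 and 0.000158). Their second probe sets gave 0.94 and 1.25 for Wnt4 and 1.04 and 1.58 for Wnt6. The Wnt6 call in the mandible was lost without control set 2 (0.70, adjusted p = 0.0716) or control set 3 (0.96, adjusted p = 0.0514).

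Lef1, the DNA-binding partner of beta-catenin without which mouse teeth arrest early, followed the ligands. It read 11.90, 11.79 and 11.79 in the control distal mandible and 10.75, 10.53 and 10.74 in the proximal mandible, and 11.45, 11.50 and 11.10 in the distal maxilla against 10.29, 10.55 and 10.02 in the proximal maxilla. The ends were separate in both jaws. The differences were 1.15 ± 0.16 (adjusted p = 4.42e-05) and 1.07 ± 0.16 (adjusted p = 0.000277), and the second Lef1 probe set gave 1.27 and 1.31.

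Axin2 read 10.57, 10.90 and 10.77 in the control distal mandible and 10.10, 9.57 and 10.0004 in the proximal mandible. In the maxilla it read 10.42, 10.53 and 10.50 distally and 9.69, 9.93 and 9.75 proximally. Again no distal array reached down to a proximal one. The differences were 0.86 ± 0.18 (adjusted p = 0.00277) and 0.70 ± 0.18 (adjusted p = 0.0233). The call in the mandible was lost without control set 2 (0.62, adjusted p = 0.122), and that in the maxilla without control set 1, 2 or 3 (0.68, 0.74 and 0.67, adjusted p = 0.216, 0.0983 and 0.256). A dimmer Axin2 probe set gave 0.36 and 0.34.

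The inhibitors did not move as a group. Sfrp4, a secreted Frizzled-related protein, read 11.20, 11.75 and 10.85 in the control distal mandible and 7.87, 8.995 and 8.49 in the proximal mandible. The control maxilla gave 9.49, 8.81 and 9.82 distally and 7.81, 8.11 and 7.95 proximally. The distal mandible was thus far above every other control region and the distal maxilla came second. The difference was 2.81 ± 0.29 in the mandible, a fold of 7.03 (adjusted p = 5.13e-06), and 1.42 ± 0.29 in the maxilla, a fold of 2.67 (adjusted p = 0.0052). The maxillary call was lost without control set 1 (1.29, adjusted p = 0.0943) or control set 3 (1.19, adjusted p = 0.117).

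Sfrp2, a related protein, went the other way. It read 12.57, 12.28 and 12.68 in the control distal mandible against 13.76, 13.62 and 13.84 in the proximal mandible. In the maxilla the values were 13.54, 13.49 and 13.54 distally and 13.81, 13.91 and 13.94 proximally. The distal mandible was the 1 low region, and in the maxilla the ends were close but separate. Distal minus proximal was -1.23 ± 0.11 in the mandible, 2.34-fold lower (adjusted p = 1.23e-06), and -0.36 ± 0.11 in the maxilla (adjusted p = 0.0472). The maxillary call was lost without any 1 control set (adjusted p from 0.209 to 0.29) and without mutant set 2 (adjusted p = 0.069), which enters only the shared spread.

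Wif1, which binds WNT ligands directly, read 11.27, 11.36 and 11.47 in the control distal mandible and 10.27, 11.13 and 10.71 in the proximal mandible. The maxilla gave 10.03, 10.14 and 9.62 distally and 9.88, 9.90 and 9.77 proximally. The ends were separate in the mandible, narrowly, and overlapped in the maxilla. The difference was 0.66 ± 0.21 in the mandible (adjusted p = 0.0432) and 0.08 ± 0.21 in the maxilla (adjusted p = 0.963). The call in the mandible was lost without control set 1 (0.49, adjusted p = 0.368), control set 3 (0.61, adjusted p = 0.254) or mutant set 3 (adjusted p = 0.076). It was also lost with no filter (adjusted p = 0.0521), with arrays centred on their median (adjusted p = 0.059) and with only the arrays compared in the fit (adjusted p = 0.0725).

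Both receptors lacked a call between the ends in controls. Fzd2, a Frizzled receptor, differed by 0.08 ± 0.09 in the mandible and -0.14 ± 0.09 in the maxilla (adjusted p = 0.694 and 0.567). Lgr5, which binds R-spondins and marks stem cells of the intestine, differed by -0.42 ± 0.20 and 0.04 ± 0.20 (adjusted p = 0.192 and 0.984), and by -0.16 and -0.13 on its dimmer probe set.

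**Figure D2:**
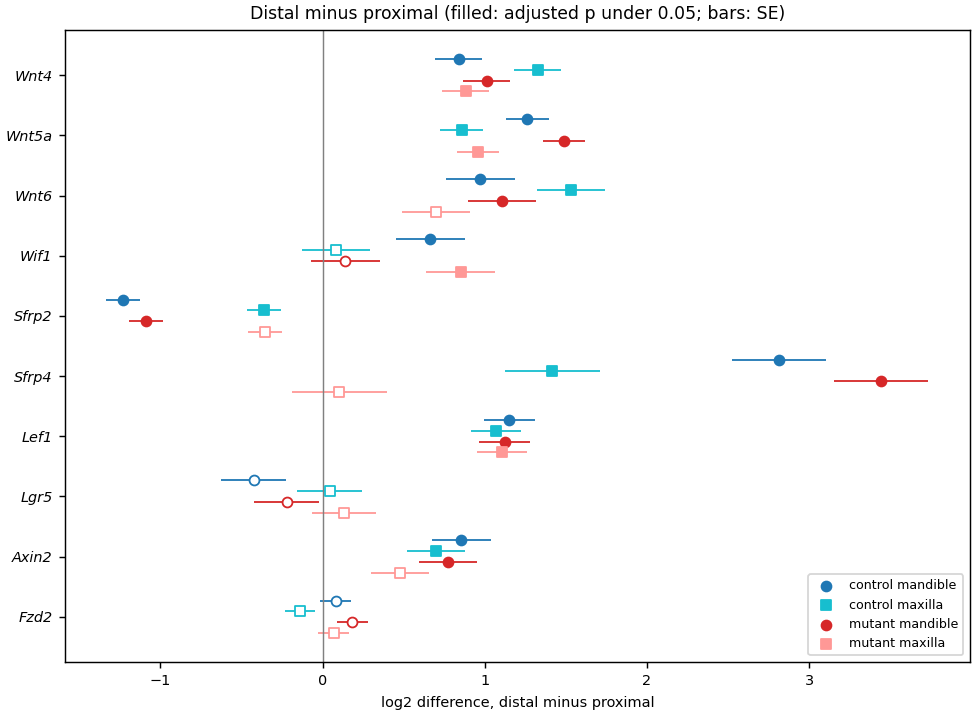
Log2 difference, distal minus proximal (horizontal axis), of the 10 genes (vertical axis) in 4 comparisons of 3 against 3 arrays, with bars of 1 SE and filled symbols at an adjusted p under 0.05. Wnt4, Wnt5a and Lef1 are filled and to the right of 0 in all 4, Sfrp2 is left of 0 in all 4, and Sfrp4 runs from 0.10 in the mutant maxilla to 3.44 in the mutant mandible.

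The same division was present in the mutants, whose arrays are separate from those of the littermate controls but share 1 fit and its spread. In the mutant mandible 6 members were higher distally and 1 lower, where 15.9% of genes were called, 7.57% higher and 8.33% lower. In the mutant maxilla 4 were higher and none lower, where 5.15% were called, 2.48% higher and 2.66% lower, and 7 members had an unadjusted p under 0.05. The ends did not overlap for 7 members in each jaw, against 28.9% and 12% of all genes. Same-numbered arrays of the 2 ends deviated together, and with the set as a fixed block the mutant maxilla gained Wnt6 (0.70, adjusted p = 0.0412), Sfrp2 (-0.36, adjusted p = 0.0317) and Axin2 (0.48, adjusted p = 0.025), among 11.1% of genes. With only the 6 arrays compared in the fit, no call in the mutant maxilla held (adjusted p from 0.0834 to 0.371 for Wnt4, Lef1, Wnt5a and Wif1).

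Wnt5a read 12.99, 13.17 and 13.02 in the mutant distal mandible, 11.64, 11.58 and 11.49 in the proximal mandible, 12.81, 12.82 and 12.42 in the distal maxilla and 11.49, 11.98 and 11.70 in the proximal maxilla. Its differences were 1.49 ± 0.13 and 0.96 ± 0.13 (adjusted p = 5.61e-07 and 0.000398). Lef1 differed by 1.12 ± 0.16 and 1.10 ± 0.16 in mandible and maxilla (adjusted p = 4.91e-05 and 0.000438). Wnt4 differed by 1.01 ± 0.14 and 0.88 ± 0.14 (adjusted p = 6.53e-05 and 0.00139). In the mandible Wnt6 (1.11 ± 0.21), Axin2 (0.78 ± 0.18) and Sfrp2 (-1.09 ± 0.11) were also called (adjusted p = 0.00101, 0.00485 and 1.59e-06). Axin2 there was lost without mutant set 1 (0.66, adjusted p = 0.073).

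Sfrp4 read 11.46, 11.74 and 11.73 in the mutant distal mandible and 7.98, 8.07 and 8.55 in the proximal mandible. In the mutant maxilla it read 8.23, 8.17 and 8.69 distally and 7.80, 8.53 and 8.47 proximally, so the 2 ends overlapped there and the distal mandible alone was high. The difference was 3.44 ± 0.29 in the mandible, a fold of 10.9 (adjusted p = 5.11e-07), and 0.10 ± 0.29 in the maxilla (adjusted p = 0.944). Wif1 had the reverse pattern of calls, with 0.14 ± 0.21 in the mandible (adjusted p = 0.734) and 0.85 ± 0.21 in the maxilla (adjusted p = 0.0234). The latter was lost without control set 3 (adjusted p = 0.0521) or without mutant set 1, 2 or 3 (0.87, 0.69 and 0.99, adjusted p = 0.0516, 0.125 and 0.0807).

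Tissue markers moved along the same axis. Jaw mesenchyme markers averaged 11.91 to 11.99 in the control distal mandible and 11.47 to 11.57 in the proximal mandible. Of 9 measured, 4 were called higher distally there and 1 lower. In the control maxilla 2 of 9 were called higher, and in the mutants 3 in each jaw, none lower. The mean of 15 measured epithelium markers was 10.42 to 10.62 in the control distal mandible and 9.61 to 9.85 in the proximal mandible, and 10.21 to 10.39 and 9.10 to 9.36 in the 2 ends of the control maxilla. Of the 15, 7 were called higher distally in the control mandible and 10 in the control maxilla, none lower, and in the mutants 10 and 9. Skeletal muscle markers ran the other way in the mandible: their mean was 7.63 to 8.92 in the control distal mandible and 10.96 to 11.55 proximally, with 13 of 13 called lower distally, as were 12 of 13 in the mutant mandible and 3 of 13 in the mutant maxilla. In the control maxilla, where Sfrp2 was also called (-0.36), muscle markers were at 11.02 to 11.49 distally and 11.59 to 11.79 proximally. There 0 of 13 were called by limma, but 0 of 13 were higher distally, and their median difference was -0.34. Cartilage markers were lower at the distal end of the control maxilla, with 7 of 8 called and means of 7.41 to 7.93 against 10.28 to 11.50, and neuron markers were too, with 6 of 8 called. In pieces of whole tissue, fewer cells of a type and less RNA per cell cannot be told apart, and the part of these tissues in the members' differences was not tested.

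**Figure D3:**
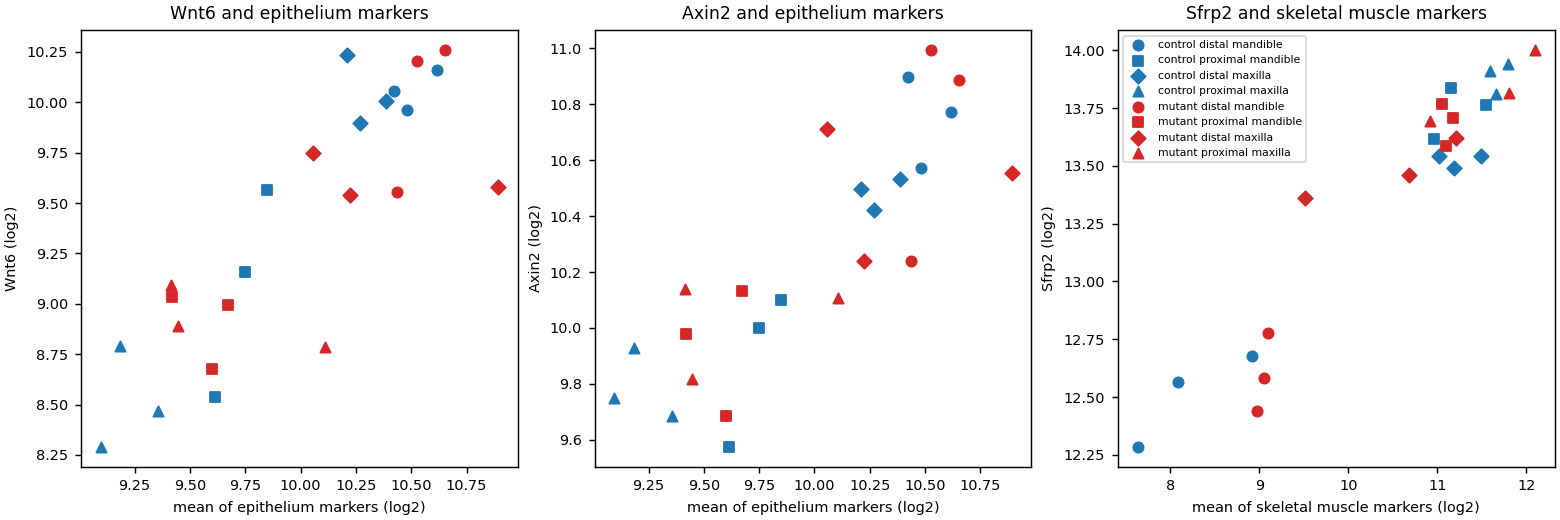
Each point is 1 array, placed by the mean log2 level of a marker list (horizontal axis) and the log2 level of a member (vertical axis), with control in blue, mutant in red and a symbol for each region. Wnt6 and Axin2 are high where epithelium markers are above 10, apart from 1 mutant proximal maxilla array at 10.11, and the 6 distal mandible arrays hold both the lowest muscle marker means, 7.63 to 9.10, and the lowest Sfrp2 levels.

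Other genes of the pathway were taken from a list of 72, of which 70 are on the array and 65 passed the filter. In the control mandible 17 were higher distally and 7 lower, and in the control maxilla 16 and 4. Of all genes 13.3% and 6.06% were called in these comparisons. The median difference over the 65 was 0.15 and 0.06, and over all genes 0.000392 and 0.01. The largest distal excesses in the mandible were in Lgr6 (1.80), a receptor for R-spondins, Rnf43 (1.21), a ubiquitin ligase that removes Frizzled receptors and is a WNT target, Sostdc1 (1.09), a secreted WNT and BMP inhibitor, and Nkd2 (1.003), a feedback inhibitor that binds Dishevelled. The largest deficits were in the secreted inhibitor Sfrp1 (-1.42), the receptor Fzd4 (-1.05) and the ligands Wnt11 (-0.84) and Wnt2 (-0.83). In the maxilla the ligand Wnt3 (1.43), Rnf43 (1.42), the target gene Sp5 (1.36) and Lgr6 (1.19) led distally. Proximally the receptor Fzd9 (-1.31), the R-spondin Rspo3 (-1.004) and the receptors Fzd5 (-0.85) and Fzd8 (-0.64) led. Rspo3 was higher at the distal end of the mandible (0.65, adjusted p = 0.014) and lower at that of the maxilla.

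In mutants 17 list genes were higher and 8 lower distally in the mandible, while the maxilla had 10 and 2. Of all genes 15.9% and 5.15% were called in these comparisons. Lgr6 (1.60), Nkd2 (1.43), the ligand Wnt9b (1.30) and Sostdc1 (1.23) led in the mandible, with Sfrp1 (-1.16), Wnt2 (-0.92), Fzd5 (-0.90) and Fzd4 (-0.85) lowest. In the maxilla Lgr6 (1.38), Sostdc1 (1.33), the feedback inhibitor Nkd1 (0.92) and the secreted inhibitor Dkk1 (0.91) led, and Fzd8 (-0.71) and Rspo3 (-0.61) were lower.

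The second question was how mandible and maxilla differ at the same end. In the control distal ends 3 members were higher in the mandible and 1 was lower, where 9.21% of genes were called, 3.51% higher and 5.7% lower. At the proximal ends 1 was higher, where 2.61% were called, 0.968% higher and 1.65% lower. Arrays did not overlap for 6 members distally and 1 proximally, against 35.3% and 25.6% of all genes. These comparisons use the same arrays as the comparison of the ends, and the values per array are those given above.

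Wif1 was higher in the mandible at both ends in both genotypes. In controls the difference was 1.43 ± 0.21 distally, a fold of 2.70 (adjusted p = 0.000174), and 0.85 ± 0.21 proximally (adjusted p = 0.0337). The mutant arrays read 11.07, 11.65 and 11.40 in the distal mandible against 10.31, 11.11 and 10.42 in the distal maxilla, and 11.16, 11.27 and 11.26 in the proximal mandible against 9.50, 9.94 and 9.86 in the proximal maxilla. Proximally the jaws were wide apart, while distally 1 maxilla array, that of set 2, reached into the mandible's range. The mutant differences were 0.76 ± 0.21 (adjusted p = 0.0443) and 1.47 ± 0.21 (adjusted p = 0.000325). The calls in the control proximal and mutant distal ends were fragile: the first was lost without control set 1, 2 or 3 or mutant set 3 (0.66 to 1.08, adjusted p from 0.0745 to 0.381), the second without any set other than mutant set 2 (0.65 to 0.76, adjusted p from 0.0527 to 0.418).

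Sfrp4 and Wnt5a were higher in the mandible at the distal end of controls, by 1.89 ± 0.29 and 0.78 ± 0.13 (adjusted p = 0.000262 and 0.000555). Sfrp2 was lower there, at a difference of -1.02 ± 0.11 (adjusted p = 6.67e-06), together with skeletal muscle markers, of which 13 of 13 were lower. Cartilage markers were higher, 7 of 8 called. The part of either tissue was not tested. Lef1 differed by 0.47 ± 0.16 (adjusted p = 0.0703), and was called with the set as a block (adjusted p = 0.0289, 14.2% of genes called), same-numbered arrays of the 2 jaws having deviated together.

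The mutant distal ends had 2 members higher and 1 lower (4.92% of genes called, 1.71% higher and 3.21% lower), and 3 did not overlap (12.3% of genes). Those called were Sfrp4 (3.28 ± 0.29, adjusted p = 3.20e-06), Wif1 and Sfrp2 (-0.88 ± 0.11, adjusted p = 6.05e-05), and those without overlap were Sfrp4, Sfrp2 and Wnt5a. Of 13 skeletal muscle markers 7 were called lower in the mandible there, as were 4 of 7 macrophage markers, none higher. The part of either tissue was not tested. Wnt5a, at 0.38 ± 0.13 (adjusted p = 0.121), was called with the set as a fixed block (adjusted p = 0.0362, 9.09% of genes called). At the mutant proximal ends only Wif1 was called (5.69% of genes, 2.73% higher and 2.96% lower), which was also the 1 member without overlap (18.5% of genes). Of 5 measured bone markers 4 were called higher in the mandible there, none lower, and the part of bone was not tested. Of the wider pathway list, 9 genes were higher and 5 lower in the control distal mandible, led by Lgr6 (1.31), Rspo3 (1.09), Nkd1 (0.85) and Nkd2 (0.81) and by Wnt11 (-0.99), Fzd4 (-0.68), the receptor Ror1 (-0.68) and the R-spondin Rspo1 (-0.67). In that comparison 9.21% of all genes were called. Proximally 5 list genes were higher in the control mandible, led by Rnf43 (0.74), the receptor Fzd10 (0.72), the ligand Wnt10a (0.65) and the receptor Fzd6 (0.64), and Fzd8 (-0.53) and the transcription factor Tcf7l2 (-0.48) were lower. Of all genes 2.61% were called there. Of 15 epithelium markers 5 were also called higher in the mandible there, none lower, and their part was not tested.

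Because the change between the ends of Sfrp2 and Sfrp4 looked larger in the mandible, the difference between the jaws was tested, a test added after the values were seen. For Sfrp2 the end difference of the mandible minus that of the maxilla was -0.87 ± 0.15 in controls (adjusted p = 0.00435) and -0.73 ± 0.15 in mutants (adjusted p = 0.0169). For Sfrp4 it was 1.40 ± 0.41 in controls (adjusted p = 0.0833, but 0.0251 when sets were a random block) and 3.34 ± 0.41 in mutants (adjusted p = 0.000347). No other member was called, and 2.73% and 1.32% of genes were called in controls and mutants.

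The third question was how the arrays labelled mutant differ from the control arrays of the same region. The mix of the sexes also differed between the genotypes, and its part was not tested. Deviations of same-numbered control and mutant arrays correlated weakly and unevenly (medians 0.16, 0.00596 and 0.21, single regions from -0.13 to 0.40), so they were not paired. In the distal maxilla Wnt5a and Fzd2 rose and Sfrp4 fell, where 7.08% of genes were called, 3.02% higher and 4.06% lower, and 7 members did not overlap, against 23.9% of genes. No member was called by limma in the distal mandible (0.895% of genes called, 1 member at an unadjusted p under 0.05), the proximal mandible (5.36%, 2 members) or the proximal maxilla (5.7%, 3 members). Members without overlap numbered 2, 2 and 1 there, against 18.3%, 30% and 24.9% of genes.

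Wnt5a in the distal maxilla rose by 0.53 ± 0.13 on the log2 scale (adjusted p = 0.0214), the 3 mutant arrays lying at 12.42 to 12.82 above the 3 controls at 12.02 to 12.25. In the proximal maxilla its difference was 0.42 ± 0.13 (adjusted p = 0.0613), and in the mandible 0.13 distally and -0.10 proximally. The other Wnt5a probe sets gave 0.64, 0.30 and 0.43 in the distal maxilla. Sfrp4 in the distal maxilla fell by 1.01 on the log2 scale (SE 0.29, adjusted p = 0.0435), 2.01-fold, with mutants at 8.17 to 8.69 and controls at 8.81 to 9.82. Elsewhere its differences were 0.38, -0.26 and 0.31, none called. Fzd2 read 12.60, 12.42 and 12.60 in mutant and 12.22, 12.12 and 12.02 in control distal maxilla, and rose by 0.42 ± 0.09 (adjusted p = 0.0139). Its 2 other probe sets, nearly as bright, gave 0.14 and 0.13.

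These 3 calls rest on few arrays, and none held with only the 6 arrays compared in the fit (adjusted p from 0.232 to 0.24). With the mean of a gene's probe sets Wnt5a was 0.48 (adjusted p = 0.152) and Fzd2 0.23 (adjusted p = 0.167), while Sfrp4, with its 1 probe set, stayed at -1.01 and its adjusted p was 0.0533 among the genes then tested. Wnt5a was lost without control set 1, 2 or 3 or mutant set 1 (0.57, 0.55, 0.46 and 0.46, adjusted p = 0.0944, 0.0682, 0.147 and 0.0745), the last being the set whose distal maxilla array stood apart. Fzd2 was lost without control set 1, 2 or 3 or mutant set 3 (0.47, 0.42, 0.37 and 0.39, adjusted p = 0.0573, 0.0783, 0.11 and 0.0562), and at 0.39 (adjusted p = 0.0411) it was called without mutant set 1. Without mutant sets 1 and 3, those with the raised Gapdh difference, it was 0.30 (adjusted p = 0.101), and with that difference as a covariate 0.27 (adjusted p = 0.0285). Sfrp4 was lost without control set 1 or 3 or without any 1 mutant set (-0.78 to -1.17, adjusted p from 0.065 to 0.275), and at an unchanged -1.01 when sets were a random block (adjusted p = 0.0742) or with no filter (adjusted p = 0.0542). Cartilage markers in the mutant distal maxilla averaged 7.51, 7.73 and 11.82 against 7.41 to 7.93 in controls, and skeletal muscle markers 9.51 to 11.21 against 11.02 to 11.49. No cartilage, muscle or epithelium marker was called between the genotypes there. Of 7 macrophage markers 2 were lower in mutants, Lyz2 (-1.12) and Aif1 (-0.57), and the list averaged 8.41 to 8.79 in mutant and 8.97 to 9.16 in control arrays, while Lyz2 was also lower in the other 3 regions. The part of these tissues was not tested.

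Wif1 read 10.31, 11.11 and 10.42 in the mutant distal maxilla against 10.03, 10.14 and 9.62 in controls, without overlap. The difference of 0.68 ± 0.21 was not called (adjusted p = 0.0573), and leaving out 1 set moved it between 0.44 without mutant set 2 (adjusted p = 0.131) and 0.83 without mutant set 1 (adjusted p = 0.043), the 1 such fit that called it. In the proximal mandible it was 0.53 ± 0.21 (adjusted p = 0.163). Bone markers there averaged 11.68 to 11.94 in mutant and 10.37 to 11.18 in control arrays. Of 5 measured bone markers 1 was called higher, and the part of bone was not tested.

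**Figure D4:**
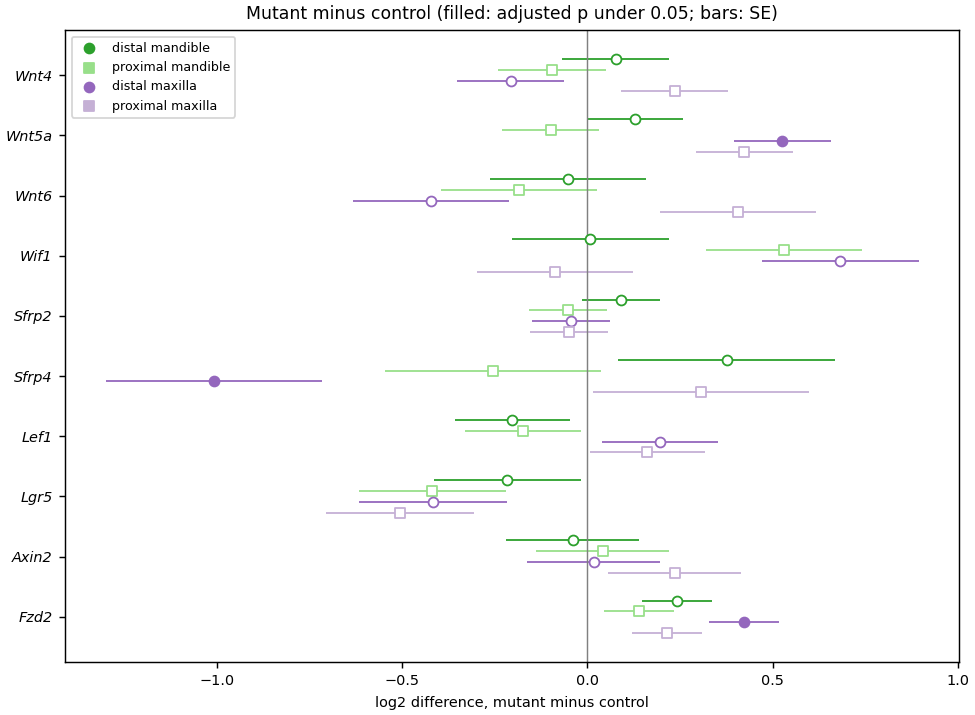
Log2 difference, mutant minus control (horizontal axis), of the 10 genes (vertical axis) in 4 regions of 3 against 3 arrays, with bars of 1 SE and filled symbols at an adjusted p under 0.05. The 3 filled symbols are Wnt5a, Fzd2 and Sfrp4 in the distal maxilla, Lgr5 is left of 0 and Fzd2 right of 0 in all 4 regions, and Sfrp2 lies between -0.05 and 0.09.

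Averaged over the 4 regions, Fzd2, Wnt5a and Wif1 were higher and Lgr5 was lower in mutants with arrays as replicates, where 33.7% of all genes were called, 18.3% higher and 15.5% lower. Arrays of a set deviated together (correlation 0.40). Treating sets as a random block left 1 member called, Fzd2, among 11.6% of genes. With 1 value per set none was called, against 0.578% of genes. Fzd2 averaged 12.28, 12.23 and 12.11 in the control sets and 12.49, 12.37 and 12.53 in the mutant sets, which do not overlap. The difference was 0.25 ± 0.05 (adjusted p = 0.000512, 0.0242 with the random block, 0.116 with 1 value per set), and its other probe sets gave 0.12 and 0.09. Mutant sets 1 and 3, with the raised Gapdh difference, were the highest, and the value was 0.14 with that difference as a covariate (adjusted p = 0.0374) and 0.16 without those sets (adjusted p = 0.0481).

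Lgr5 averaged 10.70, 10.56 and 10.70 in the control sets and 10.18, 10.49 and 10.12 in the mutant sets. The sets did not overlap, and mutant sets 1 and 3, with the raised Gapdh difference, were the low ones. The difference was -0.39 ± 0.10 (adjusted p = 0.00567, 0.133 with the random block). Without mutant sets 1 and 3 it was -0.16 (adjusted p = 0.216), and with the Gapdh difference as a covariate -0.17 (adjusted p = 0.268). The dimmer Lgr5 probe set gave -0.11. Its single regions ranged from -0.22 to -0.51, none called.

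Wnt5a averaged 12.05, 12.105 and 11.88 in the control sets and 12.23, 12.39 and 12.16 in the mutant sets, a difference of 0.24 ± 0.07 (adjusted p = 0.00731, 0.118 with the random block). It was lost without control set 3 (0.18, adjusted p = 0.0829), and its other probe sets gave 0.30, 0.04 and 0.08. Wif1 averaged 10.36, 10.63 and 10.39 in the control and 10.51, 10.99 and 10.74 in the mutant sets, which overlap. Its difference was 0.28 ± 0.11 (adjusted p = 0.0456, 0.265 with the random block), and it was lost without control set 1 or 3 or mutant set 2 or 3 (0.16 to 0.29, adjusted p from 0.112 to 0.201). Lef1 (-0.00478), Wnt4 (0.00222) and Sfrp2 (-0.01) were the members nearest to 0. For Lef1 and Wnt4 this average joined regions of opposite sign, none called. Lef1 was at -0.20 and -0.17 in the distal and proximal mandible and at 0.20 and 0.16 in the maxilla. Wnt4 was at -0.21 in the distal maxilla, without overlap, and at 0.24 in the proximal maxilla. Wnt6, at -0.06 on average, was at -0.42, without overlap, and at 0.41 in these regions, neither called. Axin2 was at 0.06 (adjusted p = 0.617) and changed with the fit, to -0.22 with the Gapdh covariate (adjusted p = 0.0269) and to 0.21 without mutant set 2 (adjusted p = 0.0154).

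Whether an end or jaw difference itself changed between the genotypes was tested in 40 member comparisons. None was called by limma, nor was any of the 13850 genes (0%), and 8 had an unadjusted p under 0.05. The largest were in Sfrp4, whose mandible excess at the distal end was 1.38 ± 0.41 greater in mutants and whose distal excess in the maxilla was -1.31 ± 0.41 against controls (adjusted p = 1.00 for each). The loss of the Sfrp4 call in the mutant maxilla is therefore not shown to differ from the controls.

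Of the wider pathway list, 11 genes were higher and 6 lower on average in mutants, which is 26.2% of the 65 and below the 33.7% of all genes. With the random block 1 was higher and 1 lower, or 3.08% against 11.6% of all genes. Sost, a secreted inhibitor that binds LRP co-receptors, was the largest (0.61, adjusted p = 2.96e-06), followed by Lgr6 (0.33), Nkd1 (0.24) and Rnf43 (0.22). The lowest were Dvl3 (-0.21), a Dishevelled adaptor, Myc (-0.20), Fzd8 (-0.19) and Ryk (-0.19), a WNT receptor. The pair called with the block was Sost (adjusted p = 0.00175) and Ryk (adjusted p = 0.0344). In single regions Sost was higher in the proximal mandible (0.81), the distal maxilla (0.80) and the proximal maxilla (0.63). Also called were Tcf7l2 (0.51) and Ryk (-0.23) in the proximal mandible, Nkd1 (0.57) and Ryk (-0.24) in the distal maxilla, and Rnf43 (0.85) and Fzd6 (0.56) in the proximal maxilla. Of all genes 5.36%, 7.08% and 5.7% were called in these regions. In the proximal maxilla epithelium markers averaged 9.41 to 10.11 in mutant and 9.10 to 9.36 in control arrays, with 2 of 15 called higher. In the proximal mandible 1 of 5 bone markers was called higher. The part of these tissues was not tested. In the distal mandible 0 of 65 were called by limma, where 0.895% of all genes were called, and 4 had an unadjusted p under 0.05.

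Among the 45 pairs of members the highest Pearson correlation over the 24 arrays was that of Wnt4 with Wnt6 (0.96) and the lowest that of Sfrp2 with Sfrp4 (-0.93). The arrays share regions, sets and tissue content, so these values are descriptions. Among all kept genes, the 2 most like Wnt4 were Trim29 (0.96) and Pkp3 (0.96), those most like Wnt6 were Evpl (0.95) and Pdlim1 (0.95), and those most like Wnt5a were Tfap2c (0.96) and Ptpn13 (0.96). For the readouts they were Cers3 (0.95) and Lama3 (0.94) with Lef1, and Ppp1r13l (0.96) and Wnt7b (0.95) with Axin2. For the inhibitors they were Actn2 (0.97) and Ablim3 (0.97) with Sfrp2, Ism1 (0.91) and Tafa4 (0.91) with Sfrp4, and 9130024F11Rik (0.93) and Fam167a (0.90) with Wif1. The receptors had weaker partners, Efnb3 (0.87) and Dchs1 (0.86) for Fzd2 and Cops3 (0.82) and Snrnp27 (0.82) for Lgr5.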

How the data were processed

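RNA of 24 jaw samples was hybridised to Affymetrix mouse arrays after RNeasy extraction and biotin labelling (5 µg total RNA), per the labels' protocols. The deposited values are log2 expression, made by the authors with RMA, per the submitters' processing notes. Its version, and which arrays were normalized together, are not given here. RMA by its usual definition gives all arrays a common distribution, so differences are relative to the array's other genes, and the number of arrays limits the precision.

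From these log2 values, each gene was taken as its probe set with the highest mean among the 34958 naming 1 gene symbol (932 name several, 9211 none), kept when 3 or more arrays read it above their 40th percentile. A single limma 3.58.1 fit (R 4.3.3) took in the 24 arrays, with group means as coefficients (16 residual degrees of freedom), and every adjusted p is Benjamini-Hochberg over the 13850 kept genes, called under 0.05. Errors after ± are SE of the log2 difference. The set was tested as a random block (duplicateCorrelation, statmod 1.5.0) and as a fixed block. Same-numbered arrays of a genotype had deviations that correlated above 0.1 in every pair of the end comparisons, the mutant jaw comparisons and the control distal jaw comparison, which were taken as paired from the values. This pairing enters only the fits named as block fits, and the main fit ignores it. In the control proximal jaw comparison 1 pair was at 0.00396. The fit was also run on simulated data with independent noise on each array. Those data held no correlation within sets, so they do not check the p-values against it. Members, lists and tests were chosen with earlier results of these data known, and the end-by-jaw tests were added after the values were seen. Named genes are all members, up to 4 called rises and falls of the pathway list per comparison, and the 2 genes most correlated with each member.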

Additional observations from a re-analysis of the deposited data

Results flagged for a closer look

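The change between the ends of Sfrp2 and Sfrp4 differed between the jaws in tests of the difference itself, 20 of which were made in 2 genotypes. For Sfrp2, the mandible's distal minus proximal value less that of the maxilla was -0.87 ± 0.15 in controls (limma, adjusted p = 0.00435) and -0.73 ± 0.15 in mutants (adjusted p = 0.0169). The control value was not called without control set 1 (-0.84, adjusted p = 0.14) or control set 3 (-0.92, adjusted p = 0.0597), nor the mutant value without control set 1 (adjusted p = 0.0595), mutant set 2 (-0.71, adjusted p = 0.133) or mutant set 3 (-0.62, adjusted p = 0.201), or with only the arrays compared in the fit (adjusted p = 0.113). For Sfrp4 in mutants the end difference was greater in the mandible by 3.34 ± 0.41 (adjusted p = 0.000347), and it was called under each alternative run. In the same test of the jaws 10 of 13 skeletal muscle markers were called in controls, all lower, and 0 of 13 by limma in mutants, where 4 had an unadjusted p under 0.05. In both genotypes 0 of 13 were positive, and the median was -2.45 in controls and -1.10 in mutants. Between the ends, 13 of 13 were called lower distally in the control mandible, 0 of 13 in the control maxilla, 12 of 13 in the mutant mandible and 3 of 13 in the mutant maxilla. In each of these comparisons 0 of 13 were higher distally. The part of muscle in the Sfrp2 result was not tested.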

How the results depend on the processing

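The counts of members called between ends and between jaws in controls (15 and 5) and of called differences of effects (0) kept within 1.5 times their value under each processing alternative, and leaving out 1 set gave 10 to 15, 4 to 6 and 0. In mutants the 15 calls became 9 with only the arrays compared in the fit and 12 to 15 without 1 set. The genotype counts moved more. In single regions the 3 calls became 0 with the mean of all probe sets or with only the arrays compared, 5 with the replicate number as a fixed block or with trend and robust variances, 7 with the Gapdh difference as a covariate, and 0 to 3 without 1 set. For the average effect the 4 calls became 2 with the mean of all probe sets, 1 with the set as a random block, 0 with 1 value per set, and 2 to 4 without 1 set. Of 4260 recomputed member values 3987 kept sign and side of the threshold, 134 changed sign without a call in either fit, 94 lost and 44 gained a call, and 1 turned with a call: Axin2, averaged over regions, was -0.22 with the Gapdh covariate. The cause of these moves was not tested. Apart from the gains named in the report and Wif1 over both jaws of the controls (0.37, adjusted p = 0.0276 with the set as a fixed block), the paired fit changed no call where the numbers pair. Same-numbered control and mutant arrays were not paired (median correlations 0.16, 0.00596 and 0.21).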
